A study of Mus musculus with 3 samples.

Results

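This report compares the cDC1s of cluster 10, the cells with the most Cxcl9, with the interferon-stimulated cDC1s of cluster 7, gene by gene. The cells were assigned by the deposited cDC1 table at its clustering resolution 0.8. That table places 76 of 5806 cDC1s in cluster 10 (21, 27 and 28 in the 3 libraries) and 422 in cluster 7 (154, 134 and 134). Raw counts were summed per library and cluster, giving 3 sums against 3, and every gene was compared. The cells are dendritic cells of the pre-cDC, cDC1 and cDC2 sort gates, taken on day 5 from MCA205 LA-OVA fibrosarcomas grown in mice on a C57BL/6J background. Each library is 1 pool of tumours from 1 genotype: WT (37 mice, 25 male and 12 female), sGSN-/- (31 mice, 15 male and 16 female) and sGSN-/-Clec9a-/- (27 mice, 10 male and 17 female). The mice were 6 to 20 weeks old and had been co-housed. All values are printed in the order WT, sGSN-/-, sGSN-/-Clec9a-/-, as CPM, the counts of each sum scaled to the same total. A mean ± standard deviation over the 3 libraries also contains any difference between genotypes.

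Interferon gamma acts largely through GAS elements, while type I and type III interferons act mainly through ISGF3, a complex that binds ISREs. CXCL9 and CXCL10 attract CXCR3-bearing T and NK cells. Many antiviral proteins, such as ISG15 and the IFIT family, are encoded by ISRE-driven genes.

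The sums of cluster 10 hold 282206, 310344 and 298768 UMIs, and those of cluster 7 hold 2280298, 2111582 and 1754536. Cells of cluster 10 carried a median of 11132.5 UMIs and 2597.5 genes, against 14253.5 UMIs and 2971.5 genes in cluster 7. The median mitochondrial share was 1.82% and 1.62%. Cluster 10 made up 0.907% (0.562 to 1.38), 1.58% (1.04 to 2.29) and 1.57% (1.05 to 2.27) of the cDC1s of the 3 libraries (exact 95% intervals over cells), lowest in WT. Cluster 7 made up 6.65% (5.67 to 7.74), 7.83% (6.60 to 9.20) and 7.54% (6.35 to 8.86). No cell of either cluster was among the barcodes with the 6% highest Scrublet scores of its matrix. Clec9a, which encodes a receptor for exposed F-actin and is the gene deleted in one strain, stood at 120.5, 168 and 0 CPM in cluster 10 and 203, 229 and 0.570 in cluster 7. Both clusters had it in the WT and sGSN-/- libraries, and the sGSN-/-Clec9a-/- library held 0 and 1 UMI, so the genotype labels fit the counts. Its log2 fold change, cluster 10 over cluster 7, was -0.66 (standard error 0.86), with the groups overlapping. Gsn, whose secreted form both knockout strains lack, was read at 145, 139 and 177 CPM against 154, 152 and 166, alike in all libraries. Reads over its transcript therefore do not separate the strains in these cells.

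Marker genes were mainly those of cDC1s in both clusters. The 9 cDC1 markers summed to 3412, 3464 and 3270.1 CPM in cluster 10 and 4229, 4063 and 3893 in cluster 7, with Irf8 the most abundant. Of the 9, 0 were higher and 3 lower in cluster 10 (Xcr1, Tlr3 and Naaa). The 7 cDC2 markers summed to 163, 519 and 117 against 44.3, 36.5 and 37.6, with Cd209a the most abundant. The 10 monocyte and macrophage markers gave 149, 99.9 and 137 against 175, 146 and 211, and the 10 NK and T cell markers 10.6, 48.3 and 23.4 against 14.9, 47.8 and 19.4. The 6 plasmacytoid markers gave 81.5, 51.6 and 36.8 against 86.0, 82.9 and 69.5, with Tcf4 the most abundant. Cell-cycle markers gave 24.8, 3.22 and 30.1 against 24.6, 30.3 and 21.1. Neutrophil and erythroid markers had 0 UMIs in cluster 10, and B cell and stromal markers at most 2.

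Of 6484 genes tested, 675 (10.4%) were called at an adjusted p below 0.05, 306 (4.72%) higher and 369 (5.69%) lower in cluster 10. Of those, 651 had ranges of library values that do not overlap, against 1929 of all 6484 tested, and 661 differed in the same direction in 3 of 3 libraries. A change over 2-fold was seen for 192 of the higher and 216 of the lower genes, and over 4-fold for 63 and 48. The median absolute log2 fold change was 1.13 among called genes and 0.33 among all tested, whose signed median was 0.0029. The shares called, 4.72% higher and 5.69% lower, are the background for the counts of each gene list below. The clusters were drawn on these same counts, so an adjusted p here describes how alike the 3 libraries are, and does not test whether the clusters exist. Resting cDC1s, the sum of clusters 0, 2, 3, 5 and 6, give a further reference. Of the 306 higher genes, 158 ran cluster 10, cluster 7, resting from high to low, and in 148 cluster 7 was the lowest. Of the 369 lower genes, 85 had cluster 10 between cluster 7 and resting cells, 149 had cluster 7 highest and cluster 10 lowest, and 135 had resting cells highest and cluster 10 lowest. Cluster 8, the Ccr7 and Il12b cells, was above cluster 7 for 205 of the 306 higher genes and for 52 of the 369 lower.

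**Figure D1:**
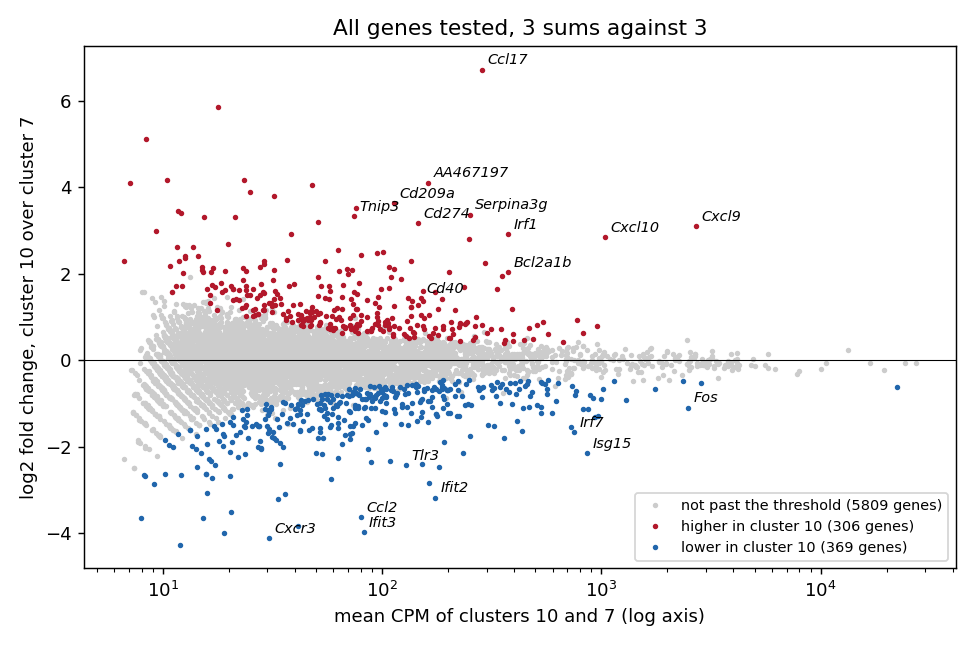
Log2 fold change of cluster 10 over cluster 7 (vertical) against mean CPM (horizontal, log axis) for the 6484 tested genes. Red points are the 306 genes called higher, blue points the 369 called lower and grey points the remaining 5809.

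Of 11 tested chemokine genes, 5 were higher, 2 lower and 4 not called, against 4.72% higher and 5.69% lower over all tested. Cxcl9, encoding a CXCR3 ligand (ENSMUSG00000029417, chromosome 5, 92321347 to 92328079, minus strand), stood at 4745, 4982 and 4769.6 CPM in cluster 10 and 519, 517 and 588 in cluster 7 (4832 ± 130.1 and 542 ± 40.4). Resting cDC1s had 16.97 ± 4.73, so both clusters express it and cluster 10 is the higher in every library. The log2 fold change was 3.10 (standard error 0.13, adjusted p = 6.1e-11, by edgeR's quasi-likelihood F-test and Benjamini-Hochberg, higher in 3 of 3 libraries). By library, 3 cells held 43.5%, 36.4% and 32.5% of the Cxcl9 UMIs in cluster 10 and 46.1%, 44.7% and 52.4% in cluster 7. Cxcl10, for the second CXCR3 ligand (ENSMUSG00000034855, chromosome 5, 92346638 to 92348889, minus strand, overlapping Art3), was read at 1513, 1508 and 2450.1 CPM against 132, 199 and 401, with resting cells at 5.999 ± 3.29. The lowest cluster 10 value was thus above the highest of cluster 7 (log2 fold change 2.85, standard error 0.31). Its UMIs were concentrated, with 3 cells per library holding 65.1%, 71.2% and 39.3% in cluster 10 and 67.4%, 73.3% and 46.9% in cluster 7. Of 12 cDC1 clusters, cluster 10 had the highest mean level of both genes and cluster 7 the next, although cluster 8 passed cluster 7 for Cxcl9 (562, 376 and 611) and cluster 9 did for Cxcl10 (191, 281 and 172) in 2 of 3 libraries each. Cxcl16, for the membrane-bound CXCR6 ligand, had 248, 197 and 171 CPM against 74.1, 108 and 102 (1.05), groups apart, but was not called on clusters remade from a part of the UMIs (0.33). Ccl4, encoding the chemokine MIP-1 beta, was abundant and overlapping at 1743, 1147 and 1794 against 1607, 1359 and 1253 (0.09).

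Both monocyte attractants ran the other way. Ccl2 (ENSMUSG00000035385, chromosome 11, 82035571 to 82037453, plus strand, overlapping Gm17268) had 10.6, 6.44 and 20.1 CPM in cluster 10, 157, 168 and 119 in cluster 7 and 208 ± 18.9 in resting cDC1s. Cluster 10 was far below both (log2 fold change -3.63, standard error 0.32), and without the sGSN-/-Clec9a-/- library the value was -4.34. Ccl7 gave 0, 0 and 16.7 against 119, 63.9 and 49.6, low in 3 of 3 libraries, at -3.83. It was not called by DESeq2 (-3.81) or on clusters remade from a part of the UMIs (-2.16). Its value was -2.82 without WT and -9.85 without sGSN-/-Clec9a-/-, since the remaining libraries have 0 UMIs in cluster 10. Cxcr3, the receptor for CXCL9 and CXCL10, was itself read at 7.09, 3.22 and 0 CPM against 64.03, 55.9 and 52.4, with 86.4 ± 5.13 in resting cells. That is 3 against 356 UMIs, a ratio of 17.2 (95% counting interval 5.84 to 83.8) and a log2 fold change of -4.11. The fold change was -4.99 without WT and -2.24, still called, on clusters remade from a part of the UMIs. The 11 tested chemokine genes had a median of 0.66 against 0.0029 for all tested. Of the calls, 4 higher and 2 lower stayed whichever library was left out, and the median ranged from -0.17 to 0.85 over the alternative settings.

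Ccl17 and Ccl22, encoding the CCR4 ligands, were carried by few cells. Ccl17 stood at 1201, 493 and 10.04 CPM against 1.75, 3.32 and 10.8, so the groups overlap and the sGSN-/-Clec9a-/- library shows no rise. Its log2 fold change was 6.72, with 5.15 without WT and 8.23 without sGSN-/-Clec9a-/-, and 3 cells held 64.2% of its UMIs in cluster 10. Ccl22 was read at 397, 25.8 and 0 CPM against 14.5, 14.7 and 2.85, high in WT alone, with 1 cell holding 55.8% of the cluster 10 UMIs. Its log2 fold change of 3.53 became 0.47 (adjusted p = 0.86, by edgeR's quasi-likelihood F-test and Benjamini-Hochberg) without WT and 4.27 without sGSN-/-. With DESeq2 the value was 3.58, not called.

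**Figure D2:**
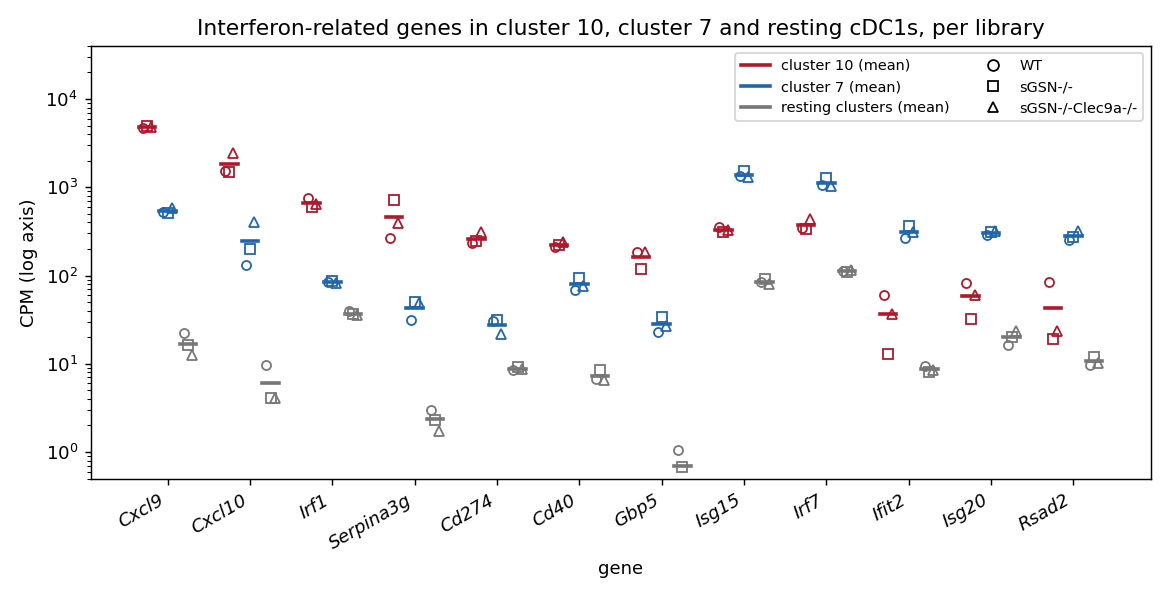
CPM (log axis) of 12 genes in cluster 10 (red), cluster 7 (blue) and resting cDC1s (grey), 1 point per library with bars at the means. Cxcl9 is at 4832, 542 and 16.97 CPM and Isg15 at 329, 1394 and 84.7.

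Among interferon regulatory factors, Irf1 and Irf7 moved in opposite directions. Irf1, a GAS-driven activator of chemokine and antigen-presentation genes (ENSMUSG00000018899, chromosome 11, 53770014 to 53778374, plus strand, overlapping Gm17334), was read at 751, 606 and 643 CPM in cluster 10 and 85.5, 85.7 and 82.1 in cluster 7. Cluster 10 was high in 3 of 3 libraries (667 ± 75.6 against 84.4 ± 2.05, resting 37.1 ± 1.89), and cluster 7 ranked only 5th of 12 clusters. The log2 fold change was 2.92 (standard error 0.13, adjusted p = 7.6e-11, by edgeR's quasi-likelihood F-test and Benjamini-Hochberg). Irf7, the amplifier of type I interferon transcription (ENSMUSG00000025498, chromosome 7, 141262706 to 141266481, minus strand, overlapping Phrf1), had 344, 335 and 432 CPM against 1064, 1289.5 and 1029.9. Every cluster 10 value was under every cluster 7 value (-1.66, standard error 0.15) yet above the resting level of 113 ± 2.37. Irf8, the cDC1 lineage factor, overlapped at 1006, 1144 and 1165 against 1271, 1236 and 1164 (-0.20). Across 18 tested IRF, STAT and related factors, 4 were higher and 1 lower, against 4.72% and 5.69% of all tested genes. The median was 0.12 (-0.03 to 0.19 over the settings), and 1 higher and 1 lower stayed called whichever library was left out. The other 3 higher genes were Batf2 (2.18), Stat5a (1.39) and Irf5 (0.46). Stat5a fell to 1.01 without WT and 1.36 without sGSN-/-, neither call being kept. Batf2 also lost its call without WT (2.22) and without sGSN-/- (2.11), and Irf5 without WT (0.50), sGSN-/- (0.38) or sGSN-/-Clec9a-/- (0.47).

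Of 13 tested interferon receptor, JAK and inhibitor genes, 5 were higher and 1 was lower, against 4.72% and 5.69% of all tested genes. Their median was 0.12 (-0.22 to 0.37 over the settings). Cish, an inhibitor of STAT5 signalling, had 135, 103 and 40.2 CPM in cluster 10 and 11.4, 9.95 and 6.84 in cluster 7, apart in every library (log2 fold change 3.19, standard error 0.34). Socs1, the inhibitor of interferon receptor kinases, had 230.3, 103 and 201 against 34.6, 46.4 and 32.5 (2.16), and Socs3, which acts on gp130 receptors, 291, 187 and 208 against 55.3, 42.1 and 34.2 (2.30), both higher in 3 of 3. Jak2, a kinase of the interferon gamma receptor, stood at 322, 290.0 and 204 CPM against 161, 144 and 118 (0.88), and the tyrosine phosphatase gene Ptpn2 rose by 0.99. Usp18, which blocks the type I receptor, was lower at 85.04, 45.1 and 124 against 282, 341 and 275 (-1.88, standard error 0.23). The receptor genes themselves were not called: Ifngr1 -0.65, Ifngr2 0.65, Ifnar1 -0.46 and Ifnar2 -0.24. All 6 calls of this group were kept whichever library was left out.

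Of 12 tested GTPases that interferon gamma induces, 7 were called higher and 5 were not called, against 4.72% called higher over all tested. Gbp5, which promotes inflammasome assembly (ENSMUSG00000105504, chromosome 3, 142493978 to 142522344, plus strand), was read at 184, 119 and 184 CPM in cluster 10, 22.8, 34.1 and 26.8 in cluster 7 and 0.695 ± 0.335 in resting cells. Each cluster 10 value exceeded each of cluster 7 (163 ± 37.5 against 27.9 ± 5.73, log2 fold change 2.48, standard error 0.22). Gbp2 (2.29), Gbp3 (2.15), Iigp1 (2.0), Gbp7 (1.76), Igtp (1.52) and Tgtp1 (1.28) were also called higher. Gbp2 moved to 2.95 without WT and 1.39 without sGSN-/-, and Iigp1 to 2.82 and 1.74. Iigp1 was not called without sGSN-/-, nor Tgtp1 without WT (1.21) or without sGSN-/-Clec9a-/- (1.05). In contrast, Ifi47, the most abundant of the family, was only just apart at 198, 216 and 224 against 179, 192 and 172 (0.18, not called), and Irgm1, an autophagy regulator, was apart by little more at 198, 180.4 and 248 against 153, 161 and 127 (0.44, not called). Of 12 tested, 7 were higher and 0 lower, 5 of them whichever library was left out. The median was 1.40 against 0.0029, and 1.04 to 1.76 over the alternative settings.

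The antiviral genes of type I interferon gave the broadest decrease. Summed over the 57 genes found, they came to 9252, 9238 and 9101 CPM in cluster 10, 16731, 17616 and 16318 in cluster 7 and 4359, 4509.7 and 4345 in resting cDC1s. Cluster 10 lies between both others in every library. Of 52 tested, 39 were lower and 1 was higher, against 5.69% and 4.72% of all tested genes. The median log2 fold change was -1.45 against 0.0029, and -1.55 to -1.28 over the alternative settings. Of the 39, 32 stayed called whichever library was left out.

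Isg15, the ubiquitin-like modifier (ENSMUSG00000035692, chromosome 4, 156199424 to 156200818, minus strand), was read at 354, 309 and 325 CPM in cluster 10 and 1341, 1542 and 1299 in cluster 7. The groups are far apart (329 ± 22.9 against 1394 ± 130.03), and resting cells are lower still at 84.7 ± 5.50. Its log2 fold change was -2.14 (standard error 0.13, adjusted p = 8.6e-09, by edgeR's quasi-likelihood F-test and Benjamini-Hochberg, lower in 3 of 3 libraries). Ifit2, which binds foreign RNA (ENSMUSG00000045932, chromosome 19, 34550694 to 34576419, plus strand), gave 60.2, 12.9 and 36.8 CPM against 267, 364 and 309. All 3 cluster 10 values were low (log2 fold change -3.18, standard error 0.27), and leaving out WT gave -3.80. Isg20, encoding an exonuclease (ENSMUSG00000039236, chromosome 7, 78913424 to 78920396, plus strand), had 81.5, 32.2 and 60.2 against 289, 309 and 321, again without overlap (-2.48, standard error 0.21). Rsad2, for viperin, had 85.04, 19.3 and 23.4 against 253, 275 and 321 (-2.83, or -3.84 without WT). In WT 1 cell of cluster 10 held 17 of its 24 UMIs.

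Several others of the group had few or no UMIs in cluster 10. Ifit3 had 28.3, 3.22 and 0 CPM against 133, 166 and 164, with WT the only library of cluster 10 holding more than 1 UMI (log2 fold change -3.98). That became -6.59 without WT and -3.38 without sGSN-/-Clec9a-/-. Its near copy Ifit3b had 1 against 138 UMIs, a ratio of 20.01 (95% counting interval 3.53 to 796), and -7.75 on the log2 scale without WT against -4.26 with all 3. Cmpk2, a mitochondrial nucleotide kinase, was at 0, 3.22 and 16.7 against 56.6, 59.2 and 64.97 (-3.20, or -5.10 without sGSN-/-Clec9a-/-). Ifi213, a DNA-binding HIN-200 protein, was at 31.9, 9.67 and 6.69 against 93.8, 113 and 95.8 (-2.74, or -3.69 without WT). Ddx60, a helicase that aids RNA sensing, had 0 UMIs in cluster 10 against 128 in cluster 7, at least 6.19-fold lower against a floor of 3 counts, or 3.37 CPM. Ifi44 was lower at -2.34, or -3.04 without WT. The single higher member was Ms4a6d, a membrane protein of activated macrophages, at 152, 235 and 131 CPM against 28.5, 34.6 and 25.1 (2.49, standard error 0.22). Ifitm3, an entry restriction factor, and Ifi205 were not called (-0.33 and -0.23), though Ifitm3 was with the library as a block (-0.34).

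Antigen presentation genes were counted in separate class I and class II lists, and 10.4% of all tested genes were called. The 22 tested MHC class I and peptide-loading genes had 0 higher and 1 lower, with a median of -0.11, and the 10 tested class II genes 0 and 2, with a median of -0.21. With the library as a block the class II calls were 1 higher and 5 lower. H2-D1, a classical class I chain, was at 1765, 1708 and 1536 CPM against 1741, 1852 and 1627, overlapping (-0.12). H2-T23, encoding the non-classical Qa-1, had 354, 399.6 and 331 in cluster 10 and 489, 552 and 418 in cluster 7 (-0.49). Its groups were apart, yet the call was lost whichever of WT, sGSN-/- and sGSN-/-Clec9a-/- was left out (-0.45, -0.48 and -0.55). H2-Oa, a brake on class II loading, stood at 49.6, 54.8 and 60.2 against 91.7, 102 and 81.5 (-0.80) and was not called without WT (-0.71) or without sGSN-/- (-0.73). Its partner H2-Ob (-0.70) was at -0.56 and -0.64 without those libraries, not called. Psmb8, the immunoproteasome subunit, was at -0.09, the invariant chain gene Cd74 at -0.22 and H2-Ab1 at -0.20, none of them called, though Cd74 was with the library as a block (-0.23).

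Of 17 tested inhibitory and costimulatory ligand genes, 6 were higher, 1 was lower and 10 were not called. The shares over all tested genes were 4.72% higher and 5.69% lower. Cd274, encoding PD-L1 (its locus overlaps AC119228.1), had 234, 245 and 308 CPM in cluster 10 against 30.7, 31.3 and 21.7 in cluster 7, high against low in 3 of 3 libraries (log2 fold change 3.16, standard error 0.19). Pdcd1lg2, encoding PD-L2 (ENSMUSG00000016498, chromosome 19, 29410919 to 29471161, plus strand, overlapping A930007I19Rik), followed with 60.2, 90.2 and 30.1 against 5.70, 3.32 and 2.85 (3.81, standard error 0.41). Cd40, the receptor through which T cells license dendritic cells (ENSMUSG00000017652, chromosome 2, 165055627 to 165072948, plus strand), stood at 209, 219 and 238 CPM against 68.4, 92.8 and 76.4, with 7.26 ± 1.12 in resting cells. Here cluster 7 is already well above resting cDC1s, and cluster 10 is higher again (1.43, standard error 0.17). Cd80 rose from 18.4, 18.9 and 14.8 CPM in cluster 7 to 85.04, 58 and 43.5 in cluster 10 (1.75). Cd86, the other CD28 ligand, was close at 287, 306 and 285 against 244, 271 and 259.9 (0.12), and Cd83, which stabilises surface MHC, overlapped at 1297, 1241 and 773 against 865, 788 and 784 (0.37). Neither was called, though Cd83 was without sGSN-/-Clec9a-/- (0.53). Of the 12 cDC1 clusters, cluster 8 rather than cluster 10 had the highest mean of Cd274 (307 against 262 CPM) and Cd40 (243 against 222). The same held for Cd80 (207 against 62.2), Pdcd1lg2 (95.8 against 60.2), Cd86 (421 against 293) and Cd83 (1480 against 1104). Icam1 (1.44) and Slamf8 (1.64) were also called higher. Lgals9, a TIM-3 ligand, was lower at 85.04, 90.2 and 70.3 against 207, 198 and 215 (-1.40), and Slamf7 was not called (0.14). All 7 calls were kept without each library, and the median was 0.40.

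Cytokine genes moved singly. Il12b, the shared IL-12 and IL-23 chain, was read at 3.54, 19.3 and 87.02 CPM against 11.8, 8.52 and 8.55, in cluster 10 from 6 of 76 cells. The groups overlap, with WT lower and only the sGSN-/-Clec9a-/- library clearly high. Its log2 fold change of 1.86 became 2.58 without WT, 2.09 without sGSN-/- and 0.12 without sGSN-/-Clec9a-/-, and it was not called in the last 2 cases. With the library as a block it was 1.67 and with DESeq2 1.91, neither called. Il15, a survival factor for CD8 T and NK cells, had 0, 3.22 and 10.04 CPM against 30.7, 31.7 and 18.8, low in 3 of 3 libraries (-2.64). Without WT it was -1.98 and without sGSN-/- -2.33, neither called, and without sGSN-/-Clec9a-/- -4.21. Il18, an interferon gamma inducer, was lower (-1.52). Il1b was abundant and not called at 3558, 3561 and 1609.9 against 2308, 2220.1 and 1457 (0.47), nor was the receptor gene Csf2rb (0.52). Both were called without sGSN-/-Clec9a-/- (0.56 and 0.69), and Il1b also with the library as a block (0.43). Il2rg (1.51), Il10ra (0.73) and Tgfb1 (0.61) were higher but lost the call without WT (0.85, 0.70 and 0.48) and without sGSN-/- (1.64, 0.77 and 0.63). The 11 tested cytokine and receptor genes had 4 higher and 2 lower, against 4.72% and 5.69% of all tested genes, and a median of 0.61.

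Genes of migration and maturation were mixed. Ccr7, the lymph node homing receptor, had 7.09, 3.22 and 70.3 CPM against 1.32, 14.2 and 3.99, Fscn1 had 0 UMIs in cluster 10 and Il15ra had 0, 0 and 3.35 against 4.82, 3.79 and 1.71. All 3 were too low to be tested. Cluster 8 of the same table had 2001 CPM of Ccr7. Marcks, a membrane-actin linker, was at 585, 538 and 449 against 397, 351 and 340.3 (0.47), apart, but not called once WT, sGSN-/- or sGSN-/-Clec9a-/- was left out (0.47, 0.40 and 0.49). Relb, an NF-kB subunit gene, rose by 1.59. Ccr2, the receptor for CCL2, was lower at 135, 116 and 107 against 195, 150.1 and 176 (-0.60). It lost its call without WT (-0.58), without sGSN-/- (-0.70) and without sGSN-/-Clec9a-/- (-0.55), and on the remade clusters (-0.04). Of 10 tested, 5 were higher and 1 lower, against 4.72% and 5.69% of all tested genes. Their median was 0.87 (0.29 to 0.96 over the settings).

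Among targets and subunits of NF-kB, 13 of 18 tested were called higher, against 4.72% of all tested genes. Nfkbia, the inhibitor that NF-kB induces (ENSMUSG00000021025, chromosome 12, 55489410 to 55492647, minus strand), stood at 609, 557 and 482 CPM in cluster 10 and 235, 237 and 225 in cluster 7. The lower group was below the higher throughout (log2 fold change 1.18, standard error 0.12, adjusted p = 3.7e-06, by edgeR's quasi-likelihood F-test and Benjamini-Hochberg, 3 of 3 libraries). Rel, encoding c-Rel, had 751, 786 and 602 against 416, 367 and 327 (0.89). Tnip3, an A20-binding inhibitor, had 117, 161 and 131 against 11.8, 10.4 and 17.1, also without overlap (3.34, standard error 0.25). Its mean was higher still in cluster 8, at 232 CPM against 136 in cluster 10. Bcl3 (1.94), Birc3 (1.72), Nfkb2 (1.38), Nfkbiz (1.30), Nfkb1 (1.23) and Tnfaip3 (1.20) were among the 13 of 18 called higher, with 0 lower. All 18 had a log2 fold change above 0, and 11 of the 13 stayed called whichever library was left out. Nfkbiz and Tnfaip3 were lost without sGSN-/- (1.02 and 0.75). The median was 1.27 against 0.0029, and 1.11 to 1.43 over the alternative settings.

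Of 22 tested immediate-early genes, 11 were lower, 1 was higher and 10 were not called, against 5.69% lower and 4.72% higher over all tested. Fos, a subunit of AP-1, had 1279, 1875 and 1704 CPM against 3604, 3275 and 3127, and Egr1, a zinc finger factor, 191, 287 and 177 against 596, 717 and 633. In both the groups were apart with cluster 10 low (-1.09 and -1.62, standard errors 0.15 and 0.17). Junb was lower as well (-0.67). Ier3, an NF-kB-induced survival gene, was the single member higher, at 131, 142 and 214 against 55.3, 71.04 and 69.5 (1.26). The Kruppel-like factor genes Klf2 and Klf4 were lower (-1.50 and -1.43), with -2.27 for Klf2 without sGSN-/-Clec9a-/- and -2.33 for Klf4 without sGSN-/-. Klf4 was not called without WT (-1.01). Whichever library was left out, 9 lower and 1 higher stayed called, and the median of the 22 was -0.80 (-0.91 to -0.53 over the settings).

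Among heat shock genes, Hspa1b, an inducible chaperone, stood at 113, 29 and 127 against 546, 374 and 209 (-2.13, or -2.82 without sGSN-/-Clec9a-/-). Its near copy Hspa1a, at -1.55, had 279.9, 122 and 733 against 1538, 1138 and 564, so those groups overlap. It came to -1.02 without WT, -1.08 without sGSN-/-, neither called, and -2.84 without sGSN-/-Clec9a-/-. Dnajb1 (-1.50), Dnaja1 (-1.12) and Hsp90aa1 (-0.80) completed the 5 of 11 heat shock genes called lower, against 5.69% of all tested genes. In this set 0 were higher and the median was -0.80. Hsp90aa1 was not called without WT (-0.57) or without sGSN-/- (-0.66). The constitutive chaperones Hspa8 (-0.41) and Hsp90ab1 (-0.45) were not called, though both were without sGSN-/-Clec9a-/- (-0.63 and -0.69) and with the library as a block (-0.44 and -0.47).

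Of 5 tested serpin genes, 2 near copies of the Serpina3 cluster were higher and 0 lower, against 4.72% and 5.69% of all tested. Serpina3g, which inhibits cathepsins in activated lymphocytes (ENSMUSG00000041481, chromosome 12, 104236245 to 104241939, plus strand), was read at 269, 709 and 395 CPM in cluster 10, 31.1, 50.7 and 48.4 in cluster 7 and 2.35 ± 0.657 in resting cells. Cluster 10 varied most, with sGSN-/- the highest, and its lowest value was above all of cluster 7 (log2 fold change 3.36, standard error 0.28). Serpina3f, its neighbour and near copy, had 28.3, 64.4 and 40.2 against 1.32, 2.37 and 3.42 (4.18). The median of the 5 was 1.47, with 0.74 without sGSN-/- and 2.41 without sGSN-/-Clec9a-/-, and 0.74 to 3.86 over all settings, which test 1 to 8 of them. Kynu, a kynurenine pathway enzyme gene, was the only one of 7 tested tryptophan, itaconate and nitric oxide genes called, at 74.4, 67.7 and 43.5 against 10.1, 13.3 and 11.97 (2.33), apart in 3 of 3 libraries. That set had a median of 0.34, and Nampt, which makes NAD, was not called (0.39).

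Of 19 tested cell death and survival genes, 8 were higher and 2 lower, against 4.72% and 5.69% of all tested genes. Bcl2a1b, an anti-apoptotic BCL2 relative (ENSMUSG00000089929, chromosome 9, 89199209 to 89207827, plus strand, overlapping Gm29094), had 684, 554 and 592 CPM against 131, 143 and 153, high against low (log2 fold change 2.04, standard error 0.13). Pmaip1, encoding the BH3-only NOXA, was lower at 227, 248 and 258 against 426, 459 and 364 (-0.83), though not called on the remade clusters (-0.36), while Mcl1, the protein NOXA binds, was not called (-0.33). Bcl2a1d, another copy, rose by 0.77, and the other 6 higher genes each lost the call without at least 1 library. The median of the 19 was 0.58, and 2 higher and 1 lower stayed called whichever library was left out.

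Of 20 tested cDC1 identity genes, 7 were lower and 0 higher, against 5.69% and 4.72% of all tested genes. Xcr1, encoding the XCL1 receptor, stood at 202, 155 and 181 CPM against 244, 252 and 255, below in 3 of 3 libraries (log2 fold change -0.55). It lost its call without sGSN-/- (-0.46) and without sGSN-/-Clec9a-/- (-0.57). Tlr3, the double-stranded RNA sensor (ENSMUSG00000031639, chromosome 8, 45395665 to 45411080, minus strand, overlapping Gm45542), had 49.6, 12.9 and 63.6 against 227, 219 and 195 (-2.42, standard error 0.26), apart and low. Naaa, a lysosomal amidase, was lower (-0.49) and was not called without sGSN-/- (-0.55) or without sGSN-/-Clec9a-/- (-0.46). Snx22 (-1.70), Ppt1 (-0.82), Rab7b (-0.82) and Id2 (-0.55) were the others of the 7. The median of the 20 was -0.42, and -0.53 to -0.08 over the alternative settings, the last with 3 called lower on clusters remade from a part of the UMIs. Id2 was not called without WT (-0.40) or without sGSN-/- (-0.56). Fcgr3 and Fcgr4, encoding IgG receptors, were higher at 28.3, 29 and 10.04 against 3.07, 1.89 and 0.570 (3.40) and 46.1, 41.9 and 56.9 against 8.33, 8.05 and 11.97 (2.30). They were the 2 called of 11 uptake genes tested, and that median was -0.01 (-0.34 to 0.29 over the settings).

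Some other genes were among the 10 largest or 10 smallest changes, counting called genes with non-overlapping values and at least 50 CPM in the higher cluster. AA467197, a small mitochondrial-complex relative that hosts a microRNA (ENSMUSG00000033213, chromosome 2, 122636986 to 122641191, plus strand, overlapping Mir147), had 337, 377 and 211 CPM against 16.7, 24.2 and 9.69, with no overlap (log2 fold change 4.10, standard error 0.24). Sdc4, the heparan sulphate proteoglycan syndecan-4, had 70.9, 109.6 and 90.4 against 2.63, 9.47 and 3.42 (4.04, or 4.64 without sGSN-/-). For Sdc4, 1 cell held 18 of 27 cluster 10 UMIs in sGSN-/-Clec9a-/-, and 1 cell held 16 of 20 cluster 7 UMIs in sGSN-/-. Cluster 9 had a mean of 94.3 CPM of Sdc4, above the 90.3 of cluster 10. Cd209a, a C-type lectin of cDC2s and monocyte-derived cells, had 109.8, 448 and 73.6 against 14.9, 18.5 and 15.96, all above cluster 7 but with sGSN-/- far the highest (3.63, or 2.48 without sGSN-/-). It was read in 29 of 76 cells of cluster 10. Atp6v0a1, a proton pump subunit, had 74.4, 54.8 and 76.98 against 10.5, 8.52 and 6.27 (2.92). On the lower side, Sct, which encodes the hormone secretin, had 3.54, 12.9 and 6.69 against 74.1, 66.3 and 53.01 (-3.09, or -3.68 without sGSN-/-).

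Metabolic and structural genes were mostly alike, where 4.72% of all tested genes were called higher and 5.69% lower. Of 80 tested oxidative phosphorylation genes 0 were higher and 1 lower (median 0.08, and -0.03 to 0.14 over the settings), and that gene, the complex I assembly factor Ndufaf6 (-1.54), was not called without sGSN-/- (-1.28) or without sGSN-/-Clec9a-/- (-1.53). The 86 ribosomal protein genes had a median of -0.02 and the 13 mitochondrial genes 0.15, with 0 called. Glycolysis had 1 higher and 1 lower of 15, with a median of -0.03. Hk2 was higher (0.80, or 0.66 and not called without WT) and Ldha lower (-0.53, or -0.38 without WT and -0.56 without sGSN-/-, neither called). Gapdh differed by -0.03. Cholesterol genes had 3 higher, 1 lower and a median of 0.63 over 12 tested (0.28 to 0.93 over the settings), and none of the 4 kept its call in all 3 fits without 1 library. Among them were Fdps (0.89, and 0.71 without sGSN-/-Clec9a-/-), Idi1 (1.06, and 0.44 without WT and 1.09 without sGSN-/-Clec9a-/-) and the exporter Abcg1 (-1.24, with -2.31 without sGSN-/-, and -0.86 and -0.96 without WT and sGSN-/-Clec9a-/-, not called). Lcp1, an actin bundler, was the 1 of 15 actin genes called (0.61, with 0.51 and 0.57 without WT and sGSN-/-, not called), in a set with a median of -0.10. Hmgb2 was the 1 of 10 cell cycle genes called (-0.63, with -0.45 and -0.59 without WT and sGSN-/-, not called). That median was -0.44, and -0.84 to 0.13 over the alternative settings, so its sign is not fixed.

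**Figure D3:**
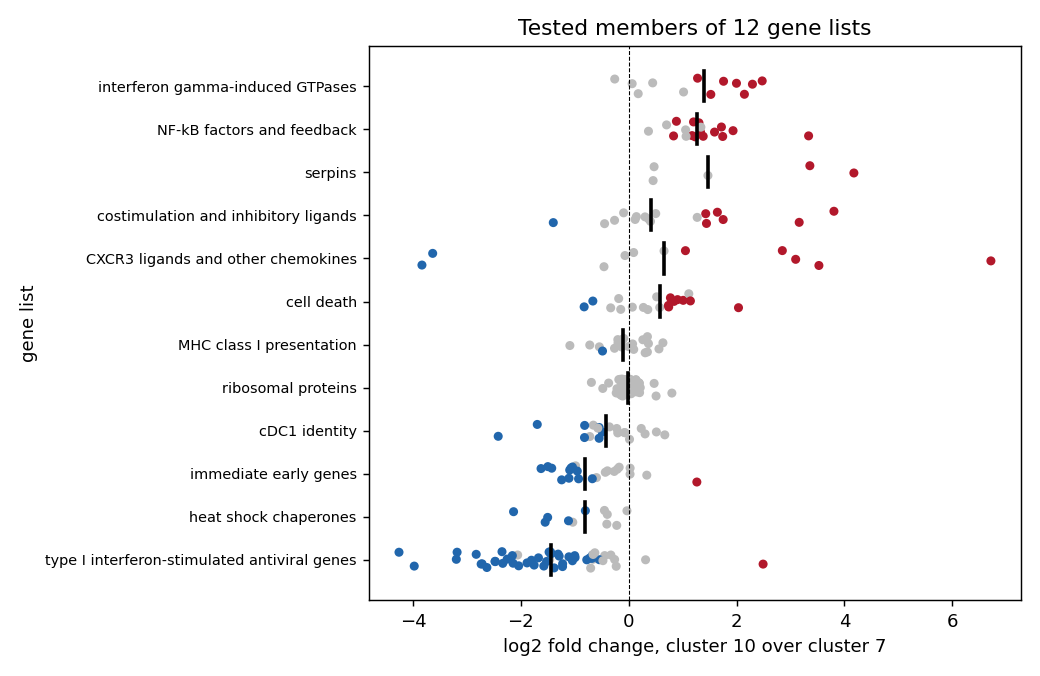
Log2 fold change of cluster 10 over cluster 7 for the tested members of 12 gene lists, red called higher, blue called lower and grey not called. Black bars are medians, from -1.45 for antiviral genes to 1.40 for interferon gamma-induced GTPases, and the dashed line is the median of all tested genes. A gene with 0 UMIs in 1 cluster is drawn at its bound against a floor of 3 counts.

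Shares of cells holding a UMI were counted after drawing 6000 UMIs from each cell, which left 67 cells of cluster 10 and 406 of cluster 7. The 95% intervals are over cells pooled from the 3 libraries and cover counting error only. NK-like cells of the same libraries, 374 after the same draw, are given beside them, but whether they make a gene was not tested, so their shares are no measure of background. Cxcl9 was read in 94.0% of cluster 10 cells (95% interval 85.4 to 98.3) and 26.8% of cluster 7 cells (22.6 to 31.4), with 0.535% of NK-like cells. By library the shares were 95%, 96% and 90.9% against 28.5%, 28.5% and 23.2%. Cxcl10 was read in 61.2% (48.5 to 72.9) against 13.5% (10.4 to 17.3), with 13.6% of NK-like cells, or 65%, 56% and 63.6% against 9.27%, 15.4% and 16.8% by library. Cd40 was read in 62.7% (50.01 to 74.2) against 30.05% (25.6 to 34.8), with 0.535% of NK-like cells, or 60%, 68% and 59.1% against 27.8%, 32.3% and 30.4% by library. Antiviral genes ran the other way, with Isg15 in 62.7% (50.01 to 74.2) against 95.1% (92.5 to 97.0), Ifit2 in 8.96% (3.36 to 18.5) against 51.7% (46.7 to 56.7) and Rsad2 in 10.4% (4.30 to 20.3) against 49.3% (44.3 to 54.2). NK-like cells had 19.0% for Isg15, 5.61% for Ifit2 and 2.67% for Rsad2. Isg15 was read in 70%, 52% and 68.2% against 95.4%, 94.6% and 95.2% by library, Ifit2 in 15%, 4% and 9.09% against 51.0%, 49.2% and 55.2%, and Rsad2 in 15%, 8% and 9.09% against 49.7%, 46.9% and 51.2%. Isg20 was read in 20.9% (11.9 to 32.6) against 70.9% (66.3 to 75.3), with 23.3% of NK-like cells, or 15%, 16% and 31.8% against 69.5%, 75.4% and 68% by library. Without the draw, Cxcl9 was read in 92.1% of 76 and 32.7% of 422 cells and Isg15 in 69.7% and 97.6%.

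Promoters, the 250 bases upstream of the gene start in RefSeq, were searched on both strands for the GAS motif TTCNNNGAA and the ISRE core, GAAA followed by any 2 bases and GAAA again (N is any base). Of the 192 genes over 2-fold higher in cluster 10, 160 had a promoter, with a GAS match in 25 (15.6%) and an ISRE match in 12 (7.5%). Of the 216 over 2-fold lower, 179 had a promoter, with GAS in 9 (5.03%) and ISRE in 24 (13.4%). Taking all 306 higher genes, 255 had a promoter, with 13.3% and 5.10%. Of all 369 lower genes 293 (79.4%) had one, with 7.51% and 10.2%, and as this is under 80% that set is void. Among 5306 promoters of tested genes the shares were 7.12% and 3.83%, and among all 27025 promoters 8.13% and 3.46%. Of 10 matched interferon gamma-induced GTPase genes 6 had GAS and 9 ISRE, and of 43 antiviral genes 6 and 17. A match describes the sequence alone, and binding was not tested. Cxcl9 had neither motif in its window. Irf1 and Ifit2 each had 2 promoters and Isg20 had 3, and for each gene the GAS match lay in only 1 of them. Stretches around the matches of 8 named genes follow, from RefSeq on GRCm38.p6, with motifs in capitals: Irf1 (chr11:53769909-53769947, plus strand) and Serpina3g (chr12:104236099-104236137, plus), both raised, and Ifit2 (chr19:34550444-34550476, plus) and Isg20 (chr7:78913336-78913374, plus), both lowered, with GAS, and Cxcl10 (chr5:92349078-92349117, minus), Isg15 (chr4:156200860-156200911, minus), Ifit3 (chr19:34583358-34583431, plus) and Rsad2 (chr12:26456548-26456587, minus) with ISRE.
Irf1: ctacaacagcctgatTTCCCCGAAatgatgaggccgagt
Serpina3g: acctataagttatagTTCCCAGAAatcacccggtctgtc
Ifit2: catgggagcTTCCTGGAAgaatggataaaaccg
Isg20: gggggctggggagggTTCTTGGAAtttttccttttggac
Cxcl10: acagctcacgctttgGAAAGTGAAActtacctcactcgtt
Isg15: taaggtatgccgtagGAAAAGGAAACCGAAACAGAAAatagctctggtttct
Ifit3: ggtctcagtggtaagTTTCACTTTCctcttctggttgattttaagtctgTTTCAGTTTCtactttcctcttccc
Rsad2: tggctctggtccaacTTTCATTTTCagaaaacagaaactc

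Each genotype is 1 pool of tumours, so biological spread within a genotype cannot be seen, and the 3 sums per cluster differ in genotype. Cluster 10 has at most 28 cells per library. Genes carried by few of them, such as Ccl17, Ccl22 and Il12b, rest on a handful of cells. RNA in the droplets could raise low counts of abundant transcripts, which was not measured, and UMIs per cell differ between the clusters. Sex was mixed within each pool. Protein, chemokine secretion and the presence of interferon gamma or type I interferon were not measured here, so which signal set each level was not tested.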

How the data were processed

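For 3 libraries the authors deposited whole-number UMI counts of every barcode, 1 library per genotype, made with Cell Ranger 6.0.1 per the file headers on the mm10 (GRCm38) transcriptome, without normalization. The other deposited columns used are names: library and cluster of each cell, barcodes and gene identifiers. The deposited cDC1 table also holds UMI and gene counts per cell and 2 UMAP coordinate columns, the latter not used. The authors made its 12 clusters with Seurat on integrated data. All 5806 of its cells were found among 30209 barcodes, and their UMIs equalled the table in 392 of the 498 cells of both clusters, within 3 UMIs in the others. Barcode sequences shared between libraries numbered 26 (WT and sGSN-/-), 28 (WT and sGSN-/-Clec9a-/-) and 27, with 0 in clusters 10 and 7. The matrices hold 176578136, 109270958 and 113411930 UMIs, and counts were not scaled between libraries before summing.

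Counts were summed per library and cluster and compared with edgeR 4.0.16 (R 4.3.3; TMM, filterByExpr, quasi-likelihood F-test, Benjamini-Hochberg adjustment, threshold 0.05). A standard error is the absolute log2 fold change over the square root of F. Of 32285 genes 6484 passed the filter, and symbols shared by more than 1 gene numbered 38. Tables were made with Python 3.11.15, scanpy 1.11.5, numpy 2.4.6 and scipy 1.17.1. The fit was tested on simulated data first. A library gives 1 sum to each cluster from 1 pool of mice, which pairs the sums by design. As a check, deviations from the group means correlated at 0.0983, 0.0309 and 0.0838 within the WT, sGSN-/- and sGSN-/-Clec9a-/- libraries. The comparison has no library term, and a fit with the library as a block is among the alternatives.

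Genes are named where the study names them (17 genes), where they are among the 10 largest or 10 smallest called fold changes with non-overlapping CPM and at least 50 CPM in the higher cluster, or as up to 4 members of each of 25 gene lists (largest and smallest called, and the pair with the highest mean). Members and lists were chosen with earlier results of these data known. Other genes, called members of the lists among them, were picked after their values were seen. Alternatives were the library block, DESeq2 1.42.0, no TMM factors, no filter, leaving out each library, leaving out barcodes with the 6% highest Scrublet scores, cells thinned to 6000 UMIs, and clusters remade on one random part of the UMIs and counted on the rest. A fold against 0 counts is taken against a floor of 3 counts over the group. Genes that overlap another gene or have near-identical copies (Serpina3g and Serpina3f, Ifit3 and Ifit3b, the Bcl2a1 copies, Hspa1a and Hspa1b) are uncertain, since the sources used here do not say whether counting separated them. This also holds for Cxcl16 (Zmynd15), Cish (Gm17040, Gm17041), Usp18 (Gm44148), Ifi47 (Gm12188, Olfr56), Irf8 (Gm20388), Il1b (Il1bos), Junb (Prdx2), Atp6v0a1 (Mir6928) and Fcgr3 (Mir6546).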

Additional observations from a re-analysis of the deposited data

Results flagged for a closer look

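Of 675 called genes, 661 differed in the same direction in 3 of 3 libraries. Among the called genes that the naming rule picks, 3 had the opposite direction in 1 genotype's library. Il12b differed by -8.30 CPM (cluster 10 minus cluster 7) in the WT library, while it was higher in cluster 10 in sGSN-/- and sGSN-/-Clec9a-/-. Ccl17 differed by -0.788 CPM and Ccl22 by -2.85 CPM in the sGSN-/-Clec9a-/- library, while both were higher in cluster 10 in WT and sGSN-/-. Hspa1a, picked outside that rule, was lower in WT and sGSN-/- and higher in sGSN-/-Clec9a-/- (733 against 564 CPM). The difference between genotypes was not tested in any of these, each genotype being a single library.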

How the results depend on the processing

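Against 675 genes called (306 higher, 369 lower), 410 were called with cells thinned to 6000 UMIs (191 and 219, 370 of them shared) and 411 on clusters remade with a random part of the UMIs at a Leiden resolution of 2 (185 and 226, 338 shared). That resolution was added after seeing the data, because at 1 both clusters fell into one. The remade clusters held 84 cells (66 of cluster 10 and 4 of cluster 7) and 338 cells (276 of cluster 7 and 4 of cluster 10). Both alternatives tested fewer genes (4416 and 4313 against 6484) on fewer UMIs. Leaving out a library gave 345 to 481 calls (162 to 225 higher, 183 to 256 lower), with 2 sums per cluster. Without the filter 905 were called (322 and 583), without TMM factors 665 (353 and 312), and with DESeq2 556 (259 and 297). No cell of either cluster was removed as a doublet, so that count was unchanged. Of 96 named genes tested, 63 were called, 44 kept the call in every alternative, and 0 called genes reversed. On the remade clusters 11 named genes lost the call, among them Cxcl16 (0.33), Ccl7 (-2.16), H2-Oa (-0.71), Ccr2 (-0.04), Pmaip1 (-0.36), Naaa (-0.29), Lcp1 (0.40), Hk2 (0.63), Abcg1 (-0.80) and Ndufaf6 (-1.39). Of those still called, Cxcr3 (-2.24), Pdcd1lg2 (2.81), Gbp5 (1.58), Kynu (1.47), Egr1 (-0.999), AA467197 (3.18), Cd274 (2.50) and Atp6v0a1 (2.33) had smaller changes there by over 1.5-fold, and Ifit3 (-6.53), Rsad2 (-4.67) and Sct (-4.12) larger ones. The cause was not tested.

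With the library as a block, which is the pairing by pool of mice, 644 genes were called (283 higher, 361 lower, 598 shared). Among the named genes it took away the call of Il12b, gave one to Ifitm3, Cd74, Il1b, Hspa8 and Hsp90ab1, and changed no other. The 21 to 28 cells per library of cluster 10 limit genes under a few CPM, where 1 UMI is 3.22 to 3.54 CPM.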

Other observations

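Some genes outside the 25 lists also stood apart, and they were picked after their values were seen. Plet1, encoding a surface protein of migrating dendritic cells, had 687, 213 and 415 CPM in cluster 10 and 63.6, 70.6 and 41.6 in cluster 7 (log2 fold change 2.81, standard error 0.27), in 28 of 76 cells. Ffar2, a receptor for short-chain fatty acids, had 15 UMIs in cluster 10 and 0 in cluster 7, at least 34.5-fold higher against a floor of 3 counts. It fell under the count filter in each fit without 1 library. Hcar2, a receptor for butyrate and niacin, had 32 against 3 UMIs, a ratio of 73.6 (95% counting interval 23.01 to 375). Procr, encoding the protein C receptor, had 21.3, 19.3 and 76.98 CPM against 2.19, 7.10 and 1.71, highest in sGSN-/-Clec9a-/- (log2 fold change 3.30). It came to 4.51 without sGSN-/- and 2.04, not called, without sGSN-/-Clec9a-/-. Mgl2, a C-type lectin of cDC2s, had 14.2, 32.2 and 13.4 against 5.26, 4.26 and 1.71 (2.29), and 1.80 without sGSN-/-, not called.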
